A study of Mus musculus with 2 samples.

Results

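Mir208a, Mir208b and Mir499 are miRNA genes that lie inside introns of the myosin heavy chain genes Myh6, Myh7 and Myh7b. They were taken by their symbols in the GENCODE M21 annotation and make up 3 of the 2202 miRNA genes counted. MicroRNA-seq, which counts short RNAs on annotated miRNA genes, was run on gastrocnemius, a large calf muscle. The tissue was female and adult, at 18 to 20 months of age, from B6CASTF1/J, an F1 hybrid strain, with no treatment or engineered allele named. The series holds 1 group of 2 libraries, biological replicates 1 and 2. They share a donor entry but have separate tissue entries, so the number of animals is not settled. P-values and intervals therefore compare these libraries only, and differences between the libraries may be technical.

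Heavy chains are the motor subunits of muscle myosin. In the mouse, Myh6 encodes the alpha heavy chain of the adult heart and Myh7 the slow or beta heavy chain of heart and slow skeletal fibres. Myh7b encodes a related chain, and its transcript is also found in slow fibres. Each intron carries a hairpin that is cut out of the host transcript and processed to mature miRNAs, whose seed near the 5′ end pairs with target messages. In mice, Mir208b and Mir499 are known to act redundantly in favour of the slow fibre programme by repressing targets such as Sox6, while Mir208a is known for its role in the heart. Gastrocnemius of the mouse is mainly a fast muscle.

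The mature sequences show which members share a seed. They are given from RefSeq on GRCm38.p6, 5′ to 3′, with the seed (bases 2 to 8) in capitals. All 3 members had an entry.
mmu-miR-208a-3p: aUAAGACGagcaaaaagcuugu
mmu-miR-208b-3p: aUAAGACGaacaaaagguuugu
mmu-miR-499-5p: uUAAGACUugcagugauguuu
mmu-miR-208a-5p: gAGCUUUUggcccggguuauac
mmu-miR-208b-5p: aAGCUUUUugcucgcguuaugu
mmu-miR-499-3p: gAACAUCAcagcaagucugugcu

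The 3p arms of Mir208a and Mir208b have the same seed, and no other mature sequence among the 1738 in the table has it. Counted from the 5′ end, with Mir208a first, they differ at G10A, A16G and C18U and are equal at 19 of 22 bases. The 5p arm of Mir499 has the seed UAAGACU, which differs from that of both Mir208 3p arms by G8U alone. Bases 2 to 7, UAAGAC, are therefore common to all 3 members and occur in no other mature sequence of the table. Over the whole alignment, seed included, miR-499-5p equals the 3p arm of Mir208b at 10 of 21 bases and that of Mir208a at 12 of 21, and over the 13 aligned bases after the seed at 4 and 6. The 5p arms of Mir208a and Mir208b share the seed AGCUUUU with miR-6415, whose gene Mir6415 had 0 counts in both libraries.

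The hairpins, with both mature arms in capitals, are shown because the deposited values count reads per hairpin gene and do not separate the arms.
Mir208a hairpin: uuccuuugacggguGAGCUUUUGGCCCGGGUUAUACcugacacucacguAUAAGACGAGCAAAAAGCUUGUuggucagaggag
Mir208b hairpin: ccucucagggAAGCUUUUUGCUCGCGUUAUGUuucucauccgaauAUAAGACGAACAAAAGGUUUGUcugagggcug
Mir499 hairpin: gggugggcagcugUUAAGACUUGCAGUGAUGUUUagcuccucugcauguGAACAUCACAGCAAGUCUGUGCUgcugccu

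Read sharing with other miRNA genes matters here, because most reads of both libraries mapped to more than 1 place and entered no gene count. The longest run that the Mir208a or Mir208b hairpin shares with any other of the 2202 annotated hairpins, on either strand, is 14 bases, and it is shared between these members. For Mir499 the longest run is 13 bases, shared with Gm24462. All these runs are shorter than the mature arms of 21 to 23 bases. By contrast, Mir1a-1 and Mir1a-2 share 28 bases with another hairpin, Mir133a-1 and Mir133a-2 share 31 and Mir133b shares 21, so the gene counts of those muscle miRNAs can be lower bounds. Matches outside miRNA genes were not tested, since no genome sequence was used.

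Mir208a (ENSMUSG00000065432.1) lies at mm10 chr14:54949060-54949142 on the minus strand, in intron 29 of Myh6. Mir208b (ENSMUSG00000077928.1) lies on the same strand at chr14:54975700-54975776, in intron 31 of Myh7, 26557 bases from Mir208a. Mir499 (ENSMUSG00000076312.1) lies at chr2:155622880-155622958 on the plus strand, in intron 19 of Myh7b. The introns of 542, 461 and 481 bases are short, all hairpins are transcribed in the host's direction, and none overlaps an annotated exon of its host. Among the 14 protein-coding genes whose symbol begins with Myh and a digit, 1 more holds a counted miRNA gene. That gene, Mir6923 in an intron of Myh3, the embryonic heavy chain gene, had 0 counts in both libraries, which allows up to 3.47 CPM (counts per 1000000 gene counts) in replicate 1 and 1.38 CPM in replicate 2.

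**Figure D1:**
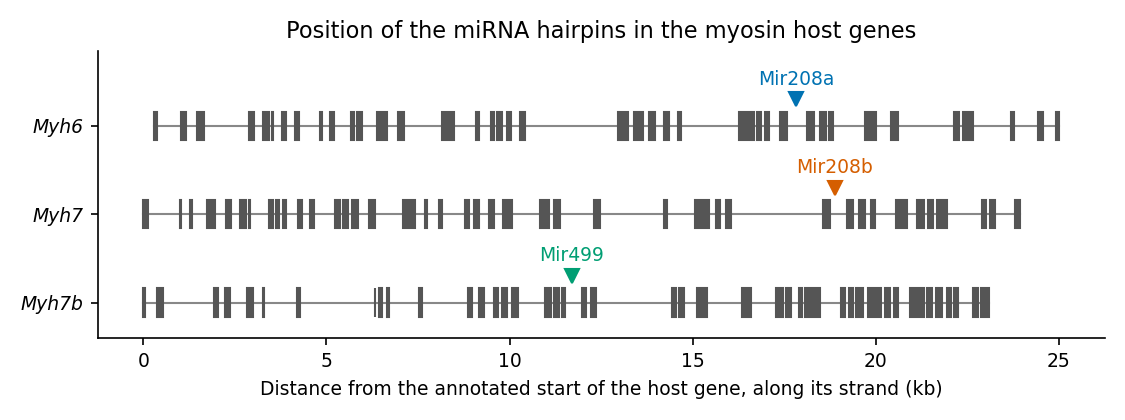
Exons (grey boxes) of the principal transcripts of Myh6, Myh7 and Myh7b, drawn by distance in kb from the annotated gene start, with a triangle at each hairpin. Mir208a and Mir208b sit in introns 29 and 31, toward the 3′ end of their hosts, and Mir499 sits in intron 19.

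The sense counts used here sum to 865419 over all miRNA genes in replicate 1 and 2177048 in replicate 2, which thus had 2.52 times as many gene counts. All reads numbered 6888732 and 12001270, a ratio of 1.74, and multimapping reads made up 80.7% and 71.0% of them. Mir206, a defining miRNA of skeletal muscle, ranked 7 in replicate 1, 3 in replicate 2 and 2 by mean CPM over both. The libraries differed widely: over the 305 genes whose mean reached 10 counts, the SD of the log2 ratio between them was 1.25. Intervals and limits cover counting error only.

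All 3 members were detected in replicate 2, and Mir208a was close to the limit of detection in replicate 1. Mir499 had 132 counts in replicate 1 and 905 in replicate 2. Mir208b was counted 25 times in replicate 1 and 1177 times in replicate 2. Mir208a was counted 1 time in replicate 1 and 74 times in replicate 2. All 3 differences exceeded the 2.52-fold difference in gene counts. At the shares seen in replicate 2, the gene counts of replicate 1 would give 360 counts of Mir499, 468 of Mir208b and 29.4 of Mir208a.

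As a level, Mir499 stood at 153 CPM in replicate 1 (95% Clopper-Pearson limits, exact, 128 to 181) and 416 CPM in replicate 2 (389 to 444). Mir208b stood at 28.9 CPM (18.7 to 42.6) and 541 CPM (510 to 572). Mir208a stood at 1.16 CPM (0.0293 to 6.44) and 34.0 CPM (26.7 to 42.7). The libraries hold RNAs of about mature miRNA length, so these levels were not divided by length. The order of the members was not the same in both libraries: Mir499 led in replicate 1 and Mir208b led in replicate 2, while Mir208a was the lowest in both. Within each library the intervals of neighbours in that order did not overlap.

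Mean levels were 285 ± 362 CPM for Mir208b, 284 ± 186 CPM for Mir499 and 17.6 ± 23.2 CPM for Mir208a (SD, n = 2). The means of Mir208b and Mir499 do not differ beyond their spread, but they average over opposite orders in the libraries. Among all miRNA genes, ranked by count, Mir499 held rank 120 in replicate 1 and 89 in replicate 2. Mir208b held ranks 191 and 75 and Mir208a ranks 377 and 213. In all, the members held 158 counts in replicate 1, or 0.0183% of gene counts (counting interval 0.0155 to 0.0213), and 2156 counts in replicate 2, or 0.0990% (0.0949 to 0.103). They are thus minor species of this muscle's counted miRNA pool in both libraries.

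No read was counted on the strand opposite to a member, in either library, and the unstranded and sense counts of each member were equal. An antisense count of 0 allows up to 3 counts per library.

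**Figure D2:**
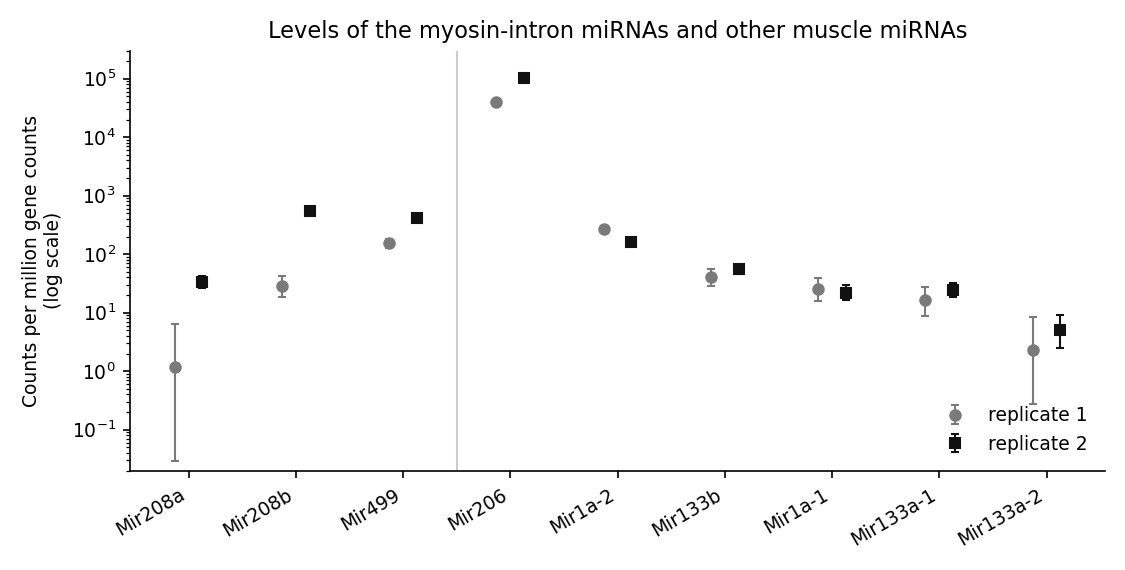
Counts per 1000000 gene counts (log scale) of the members, left of the grey line, and of other muscle miRNAs, right of it, in replicate 1 (grey circles) and replicate 2 (black squares) with exact counting intervals. Mir208b stands at 28.9 and 541 CPM and Mir499 at 153 and 416 CPM, while Mir206 stands at 40388 and 103232 CPM.

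With 1 group, the only contrast in these data is between its libraries. For each of 305 genes, the split of its reads was compared with that of the library totals by an exact binomial test, and p-values were adjusted by Benjamini and Hochberg's method. A gene was called where the adjusted p was below 0.05 and the ratio reached 2 in either direction. The test covers counting error, not animals or conditions. All 3 members were called higher in replicate 2, where 26.9% of tested genes (82 of 305) were called in that direction and 6.89% (21 of 305) in the other. The median log2 ratio of all tested genes was 0.43 with these gene-count totals, 0.15 with TMM, 0.017 with DESeq2 size factors and -0.93 with Mir206 counts as the total.

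Mir208a was 29.4-fold higher in replicate 2 (counting interval 5.12 to 1177), a log2 ratio of 4.88, with an adjusted p of 1.70e-09 by the exact test. This ratio rests on 1 count in replicate 1, and its size is therefore poorly known. Mir208a also reached the mean count needed for testing only through replicate 2, the library in which it is higher. With no filter on low counts it was called in the same direction. Mir208b was 18.7-fold higher (12.6 to 29.0), a log2 ratio of 4.23, with an adjusted p of 2.90e-132. Mir499 was 2.73-fold higher (2.27 to 3.30), a log2 ratio of 1.45, with an adjusted p of 9.68e-33. These p-values cover counting error only, and they do not measure how muscles vary.

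The rank of each ratio among all tested genes shows how far the members stand from the general spread. Ordered from the highest log2 ratio toward replicate 2, Mir208b ranked 5 and Mir499 ranked 63 of 305. At the ends of their counting intervals these ranks would be 2 and 7 for Mir208b and 40 and 83 for Mir499. For Mir208a they would be 1 and 21, and no single rank is given, because it rests on 1 count and passed the filter on low counts only through replicate 2. Of tested genes, 79.3% had a lower log2 ratio than Mir499 and 98.4% a lower one than Mir208b.

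**Figure D3:**
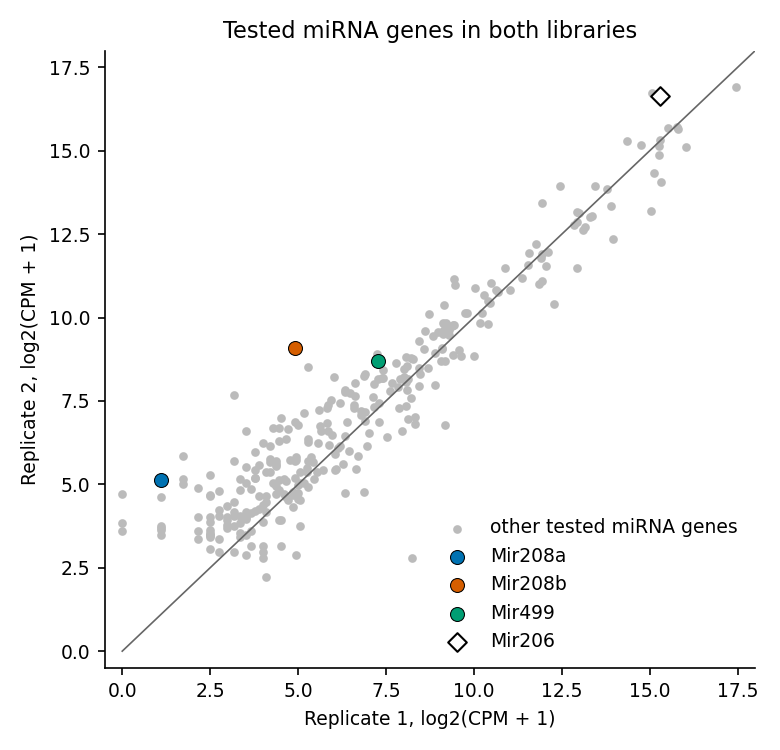
Levels of the 305 tested miRNA genes, as log2(CPM + 1), in replicate 1 (x axis) and replicate 2 (y axis), with the line of equal levels. Mir208a and Mir208b, with log2 ratios of 4.88 and 4.23, lie far above the line. Mir499 (1.45) lies within the cloud of other genes, and Mir206 (white diamond) is also above the line. These ratios are of CPM without the added 1, so the plotted distances from the line are smaller.

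Ratios between members do not depend on the library total. Mir208b and Mir499 stood in opposite order: Mir208b made up 15.9% of their summed counts in replicate 1 (25 of 157, exact interval 10.6 to 22.6) and 56.5% in replicate 2 (1177 of 2082, 54.4 to 58.7). Relative to Mir499, Mir208b was 6.86-fold higher in replicate 2 (odds ratio, interval 4.40 to 11.1), with an adjusted p of 1.28e-23 by Fisher's exact test over the 3 pairs of members. Beyond counting error, Mir208b and Mir499 thus did not differ between the libraries by a common factor. Unequal ratios were common among all tested genes. With no threshold on the ratio, 207 of 305 were called by the exact binomial test. Other pairs of genes were not tested, so the difference is not shown to be particular to these members.

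Mir208a also differed from Mir499, by an odds ratio of 10.8 (1.84 to 435), with an adjusted p of 0.00193 by Fisher's exact test. That odds ratio rests on 1 read of Mir208a in replicate 1, so its size is poorly known. For Mir208a against Mir208b no difference was detectable, with an odds ratio of 1.57 (0.250 to 65.4) and an adjusted p of 1 by the same exact test. There were 25 Mir208b reads per Mir208a read in replicate 1 and 15.9 in replicate 2. The wide interval does not show that the neighbours on chromosome 14 kept their ratio, since 1 read of Mir208a in replicate 1 sets it.

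Mir206 itself was 2.56-fold higher in replicate 2, so each member was also set against it, a comparison added after seeing the data. Mir499 amounted to 0.378% of Mir206 counts in replicate 1 and 0.403% in replicate 2. On that scale its log2 ratio was 0.093, with an adjusted p of 0.595 by the exact test, so its call was lost. Mir208b amounted to 0.0715% and 0.524% of Mir206 counts, a log2 ratio of 2.87 with an adjusted p of 9.06e-44 by the exact test. Mir208a amounted to 0.00286% and 0.0329%, a log2 ratio of 3.52 with an adjusted p of 0.000897 by the exact test. With Mir206 as the total, the median log2 ratio of all tested genes was -0.93. In a bulk tissue library, fewer fibres of a type and less miRNA per fibre cannot be told apart.

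Under the other library totals every member was called higher in replicate 2, though sizes moved. TMM and DESeq2 size factors lowered all log2 ratios by 0.28 and 0.42, which left Mir499 at 1.16 and 1.03, just above the threshold of 1. Totals of all reads or of mapped reads, which include the multimapping reads, raised them by 0.53 and 0.58 and put Mir499 at 1.98 and 2.02. The scaling also set the balance of all calls: the share of called genes that were higher in replicate 2 was 79.6% with gene-count totals, 67.3% with TMM, 59.8% with DESeq2 size factors, 93.9% with all reads, 94.2% with mapped reads and 10.1% with Mir206 counts.

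**Figure D4:**
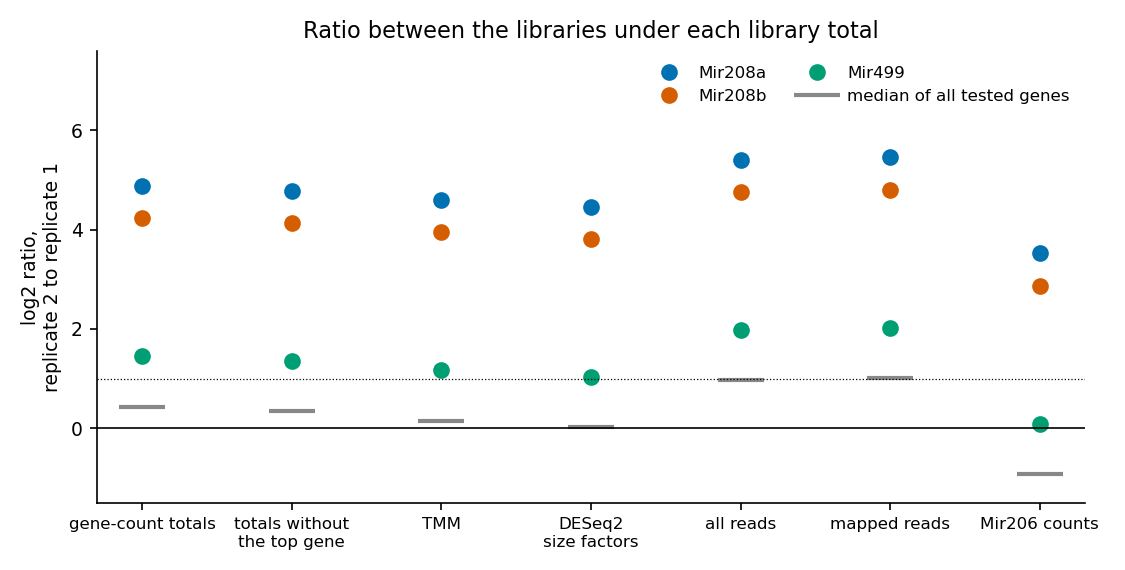
Log2 ratio of replicate 2 to replicate 1 for each member (coloured points) and the median of all tested genes (grey bars) under 7 choices of library total, with lines at 0 and at the threshold of 1. Mir208a and Mir208b stand at 2.87 or more under each choice, and Mir499 is at 0.093 when Mir206 counts are the total.

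By their gene counts, the other muscle miRNAs had smaller ratios than Mir208a and Mir208b under each total tried, but their calls depended on it. Of the 6 other muscle miRNA genes listed (Mir1a-1, Mir1a-2, Mir133a-1, Mir133a-2, Mir133b and Mir206), 5 were tested, and with gene-count totals Mir206 was the 1 called higher in replicate 2, a call lost with DESeq2 size factors (log2 ratio 0.94). The median log2 ratio of those tested was 0.46, against 0.43 for all tested genes. Mir133b, of the Mir206 locus, had 35 and 121 counts, a log2 ratio of 0.46 with an adjusted p of 0.152 by the exact binomial test, and it was called only with mapped reads as the total, at 1.04. Mir1a-2, a locus of the main striated muscle miRNA, had 234 and 353 counts, a log2 ratio of -0.74 that was not called, and it was called higher in replicate 1 with TMM (-1.02), DESeq2 size factors (-1.16) and Mir206 counts (-2.09). Mir133a-1 was called higher in replicate 2 only with all reads (1.12) and mapped reads (1.17), and Mir1a-1 was called higher in replicate 1 only with Mir206 counts (-1.56). Levels in this list spanned a wide range: Mir206 stood at 40388 and 103232 CPM and Mir1a-2 at 270 and 162 CPM. Mir133b stood at 40.4 and 55.6 CPM and Mir133a-2 at 2.31 and 5.05 CPM. The Mir1a and Mir133 values can be lower bounds in each library, so how their levels and ratios compare with those of the members is not known.

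Most other intronic miRNAs had smaller ratios than Mir208b and Mir499. Besides the members, 103 tested miRNA genes lay in introns of protein-coding genes on the host's strand. Of these, replicate 2 was the higher in 21 calls and replicate 1 in 7, with a median log2 ratio of 0.36, beside 82 and 21 calls over all 305 tested genes. The balance moved with the total, as it did for all tested genes: replicate 2 and replicate 1 were the higher in 16 and 13 calls with DESeq2 size factors (median -0.061), 46 and 5 with mapped reads (0.93) and 1 and 50 with Mir206 counts. Among all 106 such genes, ordered by log2 ratio, Mir208b ranked 3 and Mir499 ranked 20, and the counting interval of Mir208a spans ranks 1 to 5.

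Markers of other cell types moved in both directions between the libraries, and their part in the members' ratios was not tested. The liver miRNA Mir122 had 9 and 207 counts and was called higher in replicate 2, at a log2 ratio of 3.19 with gene-count totals and at 1.84 to 3.77 with the other totals. The smooth muscle list (Mir143 and Mir145a) summed to 75404 CPM in replicate 1 and 37985 in replicate 2, and 1 of its 2 genes was called higher in replicate 1, a number that was 2 with TMM and 0 with all reads. Of the 6 leukocyte genes 2 were called higher in replicate 1 with gene-count totals, and their sums were 4442 and 4930 CPM. With all reads 0 were called higher in replicate 1 and 1, Mir155, higher in replicate 2 (log2 ratio 1.10). Of the 4 fibroblast genes 3 were tested, with 1 called in each direction and sums of 633 and 1383 CPM. TMM called 0 of these higher in replicate 2.

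The endothelial list summed to 47279 and 52968 CPM, with Mir126b at 0 counts and no call with gene-count totals. Neither erythroid gene was called with gene-count totals, and 1 was with all reads, at sums of 230 and 316 CPM. None of the 6 neural genes was tested: their reads numbered 1 in replicate 1 and 5 in replicate 2, and Mir9-2 and all 3 copies of Mir124a were at 0 in both. The hairpins of Mir9 and Mir124a copies share runs of 26 to 33 bases with another hairpin, longer than a mature arm, so these counts can be lower bounds.

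The genes nearest to each member in level and ratio were found by distance in log2(CPM + 1) over the 2 libraries, a description on few points. Nearest to Mir499 was Mir106b, in an intron of Mcm7, with 130 and 1050 counts (distance 0.22), followed by Mir132 with 148 and 743 and Mir181a-2 with 144 and 638. Nearest to Mir208b was Mir770 with 33 and 804 counts (distance 0.67), followed by Mir433 with 55 and 648 and Mir330 with 52 and 400. Nearest to Mir208a were Mir429, Mir219a-2 and Mir129-2, at 1 or 2 counts in replicate 1 and 51 to 76 in replicate 2. The neighbours of Mir208b were the farthest, in that the last of its 3 nearest genes lay at 1.86, against 0.52 for Mir499 and 0.63 for Mir208a.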

How the data were processed

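The deposited values are raw counts of reads per miRNA gene, 1 file per library, on mm10 with GENCODE M21, per the README files of the deposited data. No aligner or counting tool is named there (not given in the sources used here), and nothing is assumed about them. Each file holds 4 tallies, which stayed out of totals and tests, and 3 count columns without a header. By their values the columns hold unstranded, sense and antisense reads, and sense reads were taken. CPM are counts per 1000000 sense gene counts. All genes whose mean reached 10 counts were tested for a difference between libraries by an exact binomial test, two-sided and conditional on each gene's summed count, with p-values adjusted by Benjamini and Hochberg's method over all genes tested, and a count of 0 entered as 3. edgeR's quasi-likelihood test was not used, because 1 group of 2 libraries leaves no residual degrees of freedom for their difference. Pairs of members were compared by Fisher's exact test. Intervals are at 95%. Named genes are the members, the other muscle miRNAs, the 3 nearest genes per member, genes sharing a seed, miRNA genes inside other Myh genes and genes of the marker lists. Gm24462 was named after its value was seen. Mir142a and Mir146a were matched as Mir142 and Mir146. Members, lists and tests were chosen with earlier results of these data known. Sequences are from RefSeq, and hairpins for shared runs from GENCODE. The binomial test was tested on simulated data. Tools were Python 3.11.15, SciPy 1.17.1, R 4.3.3, edgeR 4.0.16 (TMM) and DESeq2 1.42.0 (size factors).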

Additional observations from a re-analysis of the deposited data

How the results depend on the processing

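Under 9 of 10 alternatives, all but the added one that takes Mir206 counts as the total, Mir208b and Mir499 were called higher in replicate 2 each time. So was Mir208a under 8 of these 9, since it was not tested with a mean of at least 100 counts. Where Mir208a passed a filter on low counts, it did so only through replicate 2. Mir208b, with 25 counts in replicate 1, likewise reached a mean of at least 100 counts only through replicate 2. Mir208a and Mir208b, but not Mir499, were also called under the added one. Using no filter on low counts, a mean of at least 100 counts or no threshold on the ratio leaves the members' ratios unchanged. These settings could thus hardly change the members' calls and are no further support for them. Log2 ratios over all alternatives, the added one included, ran from 3.52 to 5.46 for Mir208a (adjusted p 9.37e-14 to 0.000897), from 2.87 to 4.80 for Mir208b (1.18e-196 to 9.06e-44) and from 0.093 to 2.02 for Mir499 (4.99e-69 to 0.595), all by the exact binomial test. The call of Mir499 was lost with Mir206 counts as the total, at 0.093; the cause was not tested. The number of called genes, 103 of 305, became 156 with mapped reads as the total. It became 50 with a mean of at least 100 counts, where 170 genes were tested, and 207 with no threshold on the ratio. With all reads as the denominator the mean levels were 3.16 for Mir208a, 50.9 for Mir208b and 47.3 for Mir499 per 1000000 reads, because the denominator is larger. Leaving out each library in turn leaves the other's value, 1.16 to 34.0 CPM for Mir208a, 28.9 to 541 CPM for Mir208b and 153 to 416 CPM for Mir499. The odds ratios between members could not change with unstranded counts, because the unstranded and sense counts of each member were equal. No paired analysis was possible because the series has 1 group. Depth limits Mir208a most: 1 count in replicate 1 cannot set its level or its ratio to Mir208b.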
